A study of Drosophila melanogaster with 4 samples.

Results

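The nuclear pore complex is the channel through which all regulated traffic between nucleus and cytoplasm passes. It is built from nucleoporins, which form stacked rings, a central channel lined with phenylalanine-glycine (FG) repeats, a basket on the nuclear side and filaments on the cytoplasmic side. Soluble transport receptors carry cargo through it: importins and exportins of the karyopherin family follow the gradient of the small GTPase Ran, and messenger RNA leaves on the heterodimer of sbr (the fly NXF1) and Nxt1 without direct use of that gradient. In the fly ovary, the sbr paralog nxf2 does not act in bulk export. There it works with Panx and Nxt1 beside the Argonaute protein Piwi in silencing transposons inside the nucleus.

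The genes described here are the nucleoporins and nuclear transport receptors of adult Drosophila melanogaster intestinal stem cells, whose divisions replace the gut lining. They were taken by gene symbol, without use of any measured value, and the symbols found 30 of the 15495 rows of the table, 17 nucleoporins and 13 transport receptors. Ran and transportin stand in the table under the older symbols ran and Trn, outside that set, and are given with the other genes of the pathway. RNA interference against Piwi was compared with interference against mCherry, a fluorescent protein with no counterpart in flies, as the control. Both had been expressed for 7 days at 29 °C, and each group held 2 libraries, each from sorted cells of 100 pooled guts. The labels of the control libraries name a yw source and those of the other group a Piwi RNAi source. The driver that expressed the constructs, the age and sex of the flies, and how the genetic backgrounds relate are not stated by the labels.

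Gene levels are FPKM, fragments scaled to transcript length and to library size, so they can be compared between genes. The libraries were shallow, with an estimated 1630000 to 2310000 fragments each. The targeted gene, piwi, was near the limit of detection in the controls (0.495 and 1.94 FPKM) as well as after Piwi RNAi (0.208 and 0.442 FPKM), so it checks the labels only weakly. Progenitor markers were present in all libraries (7 of 7 above 0 in each, with summed levels of 366 and 469.96 FPKM in the controls and 688 and 638 FPKM after Piwi RNAi). Of the other cell types, 10 of 10 enterocyte markers were above 0 in each library, with a summed level of 17456 FPKM in mCherry RNAi replicate 1 against 856 to 1694 FPKM in the other 3 libraries. Between 9 and 11 of 11 enteroendocrine markers were above 0, at 2838 and 5596 FPKM in the controls and 269 and 483 FPKM after Piwi RNAi, and 6 or 7 of 7 visceral muscle markers, at 22.5 to 112 FPKM. The 2 tracheal markers summed to 6.02 and 12.5 FPKM in the controls and 21.3 and 23.5 FPKM after Piwi RNAi. Of all these markers, 1 enteroendocrine gene was called between the groups. Hemocyte markers summed to 3.55 to 5.03 FPKM, with 1 or 2 of 4 above 0 and nimC1 and He listed at 0 in every library. Germ line and testis markers summed to 0.567 to 2.84 FPKM, with 2 or 3 of 6 above 0 and nos, aly and can listed at 0 in every library.

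No nucleoporin and no transport receptor passed the test between Piwi RNAi and mCherry RNAi, while the values of nearly all of them were higher after Piwi RNAi. The test was a limma-trend fit on log2(FPKM + 1), run over the 8313 genes averaging 1 FPKM or more, and a gene was called at an adjusted p (Benjamini-Hochberg over all these genes) under 0.05. Of the 29 tested members 0 were called, where 0.613% of all tested genes were called higher and 0.565% lower. The smallest adjusted p of a member was 0.133 (FBgn0039120, the gene that encodes both Nup98 and Nup96). At an unadjusted p under 0.05 there were 17 of 29, all with higher values after Piwi RNAi, against 21.7% of all tested genes in that direction. This count depended on how the libraries were scaled. It was 4 of 29 both with quantile normalization and with median-of-ratios scaling, beside 15.4% and 17.7% of all tested genes in either direction. After adjustment for transcript length it was 2 of 28, beside 17.6%, and with scaling to the same sum 21 of 29, beside 39.55%. With 2 libraries a group, an exact permutation test of a single gene cannot go below p = 0.333. The calls therefore rest on the fit, which pools the spread over genes.

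In 26 of the 29 members both Piwi RNAi libraries lay above both mCherry RNAi libraries, and in 0 they lay below. Over all tested genes these shares were 51.5% and 13.0%, since most genes had higher values after Piwi RNAi in these data. All 29 members had a log2 difference above 0, as did 70.0% of all tested genes. The median log2 difference was 0.77 for the 17 nucleoporins and 0.74 for the 12 tested receptors, beside 0.37 for all tested genes, so the lists lay 0.40 and 0.38 above it. A difference of at least 1 was found for 3 of the 29, against 10.1% of all tested genes. Because the members were looked at with earlier results of these data known, these counts and medians describe the lists and do not test them. In sorted pools, fewer cells of a type and less RNA per cell cannot be told apart.

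**Figure D1:**
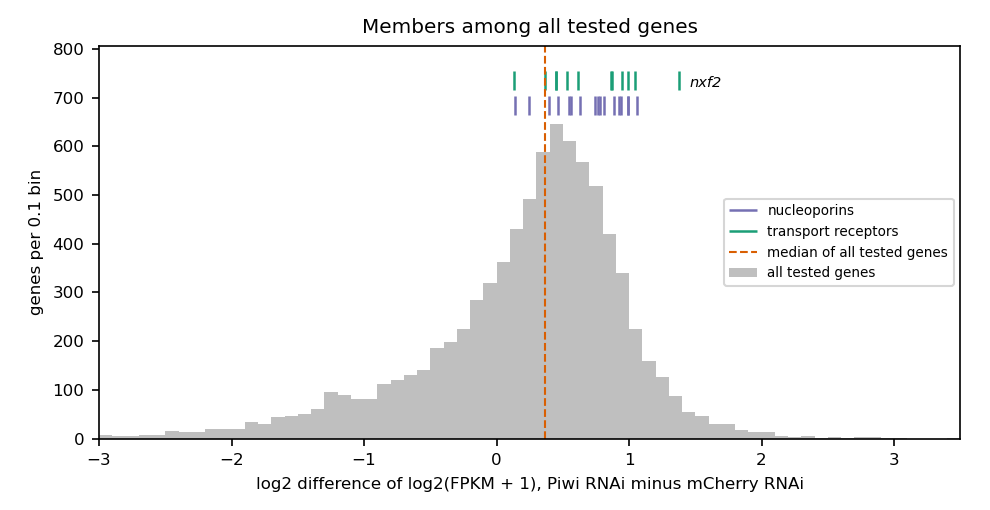
Histogram of the log2 difference (Piwi RNAi minus mCherry RNAi, in log2(FPKM + 1)) of the 8313 tested genes in bins of 0.1, drawn from −3 to 3.5, with a tick for each of the 17 nucleoporins and 12 transport receptors above it. The members lie between 0.13 and 1.38, 25 of 29 to the right of the dashed median of all tested genes at 0.37.

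The scale of the libraries bears on these counts. Median-of-ratios scaling moved the median of all tested genes from 0.37 to −0.014 on the log2 scale. With that scaling the medians were 0.375 for nucleoporins and 0.35 for receptors, 25 of the 29 differences stayed above 0, and 18 of 29 members had both Piwi RNAi libraries on top, beside 26.9% of all tested genes. The members with values below 0 were then Nup44A, Nup43, msk and sbr. One library also stood apart: mCherry RNAi replicate 1, the library with the high enterocyte markers, was the lowest of the 4 libraries in 27 of 29 members, as it was in 52.7% of all tested genes. Without it, the medians were 0.53 for nucleoporins and 0.55 for receptors beside 0.27 for all tested genes, and the number of members with both Piwi RNAi libraries on top of the remaining control was 26 of 29, against 58.6% of all tested genes. The control replicates themselves differed by a median of 0.42 for nucleoporins and 0.36 for receptors (replicate 2 minus replicate 1), beside 0.18 for all tested genes. Enteroendocrine markers instead split by group, at 2838 and 5596 FPKM in the controls and 269 and 483 FPKM after Piwi RNAi. Leaving out mCherry RNAi replicate 1 keeps that split. The part of enterocyte or enteroendocrine RNA in the differences was not tested.

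**Figure D2:**
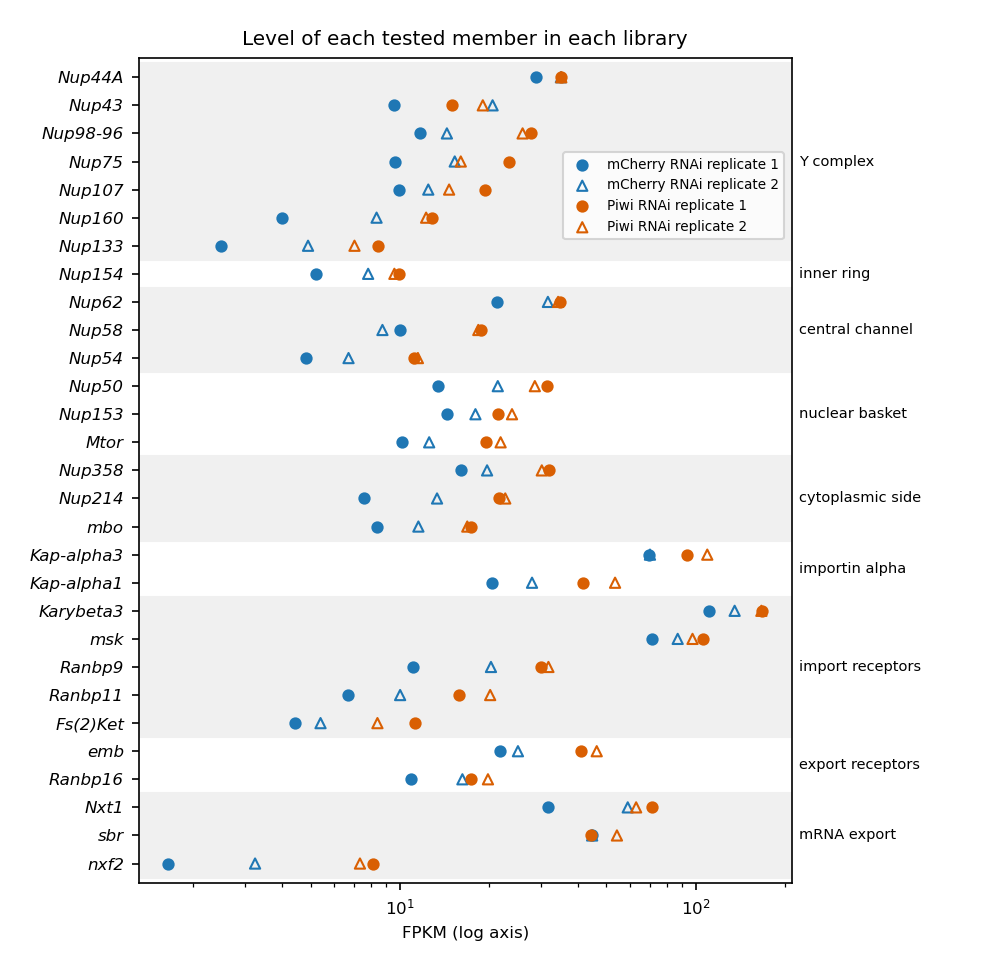
Level in FPKM (log axis) of each of the 29 tested members in each library, grouped by place in the pore or by kind of receptor; filled circles are replicate 1, open triangles replicate 2, blue mCherry RNAi and orange Piwi RNAi. mCherry RNAi replicate 1 is the leftmost point in 27 of the 29 rows, and both Piwi RNAi points lie to the right of both mCherry RNAi points in 26; FBgn0039120 is drawn under its symbol, below Nup43.

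Levels of nucleoporins spanned an 8.66-fold range in the controls. By mean control level the order ran from Nup44A (32.0 FPKM) and Nup62 (26.5 FPKM) through Nup358, Nup50, Nup153, Nup43, FBgn0039120 (Nup98 and Nup96), Nup75, Mtor, Nup107, Nup214, mbo and Nup58 to Nup154, Nup160, Nup54 and Nup133 (3.70 FPKM). Of the 16 neighbouring pairs in that order, 14 had overlapping control libraries, and those of Nup62 and Nup358 and of Nup58 and Nup154 did not. After Piwi RNAi the range was 4.53-fold, again with Nup44A and Nup62 on top and Nup133 at the bottom. Nup43 stood at place 6 of 17 in the controls and at place 12 after Piwi RNAi, and Nup214 at places 11 and 7. Summed over the 17 genes, nucleoporin levels were 188 and 263 FPKM in the controls and 360.2 and 349 FPKM after Piwi RNAi.

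The Y complex is the scaffold of the outer rings of the pore. FBgn0039120, which encodes both the FG protein Nup98 and the scaffold protein Nup96, had 11.7 and 14.4 FPKM in the controls against 27.7 and 26.0 FPKM under Piwi RNAi. The groups did not overlap, and the step between them was wide beside the gap between replicates. Its group means were 13.1 ± 1.95 and 26.9 ± 1.22 FPKM (SD, n = 2 per group), a 2.06-fold ratio and a log2 difference of 0.99 ± 0.23 (SE; 95% interval 0.41 to 1.58; limma adjusted p = 0.133). That difference was 0.61 with median-of-ratios scaling, 0.51 after adjustment for transcript length and 1.18 with scaling to the same sum.

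Other members of the Y complex ranged from clear separation to none. Nup160 had 3.99 and 8.35 FPKM in the control libraries and 12.9 and 12.3 FPKM after Piwi RNAi, and Nup133, the member with the lowest level, had 2.49 and 4.90 FPKM in the controls against 8.47 and 7.03 FPKM under Piwi RNAi. In both, the control replicates differed by about the same factor as the group means, and the intervals were wide (0.019 to 1.96 and −0.031 to 1.91 for the log2 differences of 0.99 and 0.94). Nup107 read 9.91 and 12.5 FPKM in the control libraries and 19.4 and 14.7 FPKM after Piwi RNAi, and Nup75 9.61 and 15.3 FPKM in the controls against 23.4 and 16.1 FPKM under Piwi RNAi. For Nup75 the higher control library and the lower Piwi RNAi library nearly met. Without mCherry RNAi replicate 1 the log2 differences were 0.54 for Nup160, 0.56 for Nup133 and 0.32 for Nup75, and without Piwi RNAi replicate 1 they were 0.37 for Nup107 (0.56 with all libraries) and 0.38 for Nup75 (0.63 with all libraries).

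Nup44A, the fly Seh1 that the Y complex shares with regulators of TOR signalling, and Nup43 were the nucleoporins with the largest p. Nup44A had 29.0 and 35.1 FPKM in the control libraries and 35.1 and 35.2 FPKM after Piwi RNAi, so 3 of the libraries were alike and mCherry RNAi replicate 1 stood lower. Its log2 difference was 0.14 ± 0.21 (95% interval −0.40 to 0.68; limma adjusted p = 0.664), and 0.0022 without that library. Nup43 had 9.57 and 20.6 FPKM in the controls against 14.996 and 19.1 FPKM under Piwi RNAi, with mCherry RNAi replicate 2 above both Piwi RNAi libraries. Its log2 difference of 0.25 ± 0.41 (95% interval −0.81 to 1.30; limma adjusted p = 0.687) became −0.27 without mCherry RNAi replicate 1. With median-of-ratios scaling both were below 0, at −0.26 for Nup44A and −0.13 for Nup43. The span of Nup44A lies over ACC on the opposite strand, and without a stated strand setting reads of the pair cannot be told apart. The same holds in part for Nup154 (over Art8), Nup160 (RfC38), Nup54 (CG43204), emb (a long noncoding RNA), Ranbp16 (Lcch3) and sbr (CG15209, CG15210 and, on its own strand, CG32669).

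The inner ring was represented by Nup154, the fly Nup155, a large scaffold protein of the pore wall. It had 5.19 and 7.82 FPKM in the control libraries and 9.96 and 9.59 FPKM after Piwi RNAi, with the groups apart and a log2 difference of 0.54 ± 0.29. That difference was 0.29 without mCherry RNAi replicate 1 and 0.084 after adjustment for transcript length. The 3 FG nucleoporins of the central channel, Nup54, Nup58 and Nup62, bind one another and form the permeability barrier. Nup58 (FBgn0038722) had 10.05 and 8.74 FPKM in the controls against 18.9 and 18.4 FPKM under Piwi RNAi, and like sbr among the receptors, did not have its lowest value in mCherry RNAi replicate 1. The group means were 9.39 ± 0.922 and 18.7 ± 0.314 FPKM (SD, n = 2 per group), a 1.99-fold ratio (log2 difference 0.92 ± 0.22; 95% interval 0.34 to 1.502; limma adjusted p = 0.138). Nup54 had 4.81 and 6.71 FPKM in the control libraries and 11.2 and 11.5 FPKM after Piwi RNAi, a 1.97-fold ratio (log2 difference 0.88 ± 0.27; 95% interval 0.18 to 1.59; limma adjusted p = 0.159). The third channel protein, Nup62, stood at 21.3 and 31.7 FPKM in the controls against 34.8 and 34.3 FPKM under Piwi RNAi, where mCherry RNAi replicate 2 came close to the Piwi RNAi libraries. The log2 difference of Nup62 was 0.40 ± 0.26 (95% interval −0.28 to 1.08; limma adjusted p = 0.345), near the median of all tested genes, and 0.12 without mCherry RNAi replicate 1.

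On the nuclear side, Nup153, Nup50 and Mtor form or bind the basket. Mtor, the fly Tpr, which builds the basket filaments and is also known to bind chromatin, had 10.2 and 12.6 FPKM in the control libraries and 19.5 and 21.9 FPKM after Piwi RNAi. Its groups were apart by more than the gap between replicates, with a log2 difference of 0.81 ± 0.23 (95% interval 0.21 to 1.42; limma adjusted p = 0.152). The difference of Mtor was 0.43 with median-of-ratios scaling, 0.33 after length adjustment and 0.998 with scaling to the same sum. Nup50, a cofactor of importin release, had 13.5 and 21.5 FPKM in the controls against 31.4 and 28.6 FPKM under Piwi RNAi (log2 difference 0.78 ± 0.29; 95% interval 0.033 to 1.53; limma adjusted p = 0.180), and the difference was 0.46 without mCherry RNAi replicate 1. Nup153, which anchors the basket, had 14.5 and 18.0 FPKM in the control libraries and 21.5 and 23.97 FPKM after Piwi RNAi and a log2 difference of 0.46 ± 0.23, which was −0.022 after adjustment for transcript length. The groups of both were apart, with the lower Piwi RNAi library less far from mCherry RNAi replicate 2 in Nup153 than in Nup50.

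On the cytoplasmic side, Nup214 and mbo, the fly Nup88, form a platform on which exported messenger RNA is remodelled and which tethers the exportin emb, and Nup358 makes filaments that dock RanGAP. Nup214 had 7.55 and 13.4 FPKM in the controls against 21.6 and 22.7 FPKM under Piwi RNAi. Its group means differed 2.12-fold and its log2 difference of 1.06 ± 0.32 was the largest among nucleoporins (95% interval 0.23 to 1.89; limma adjusted p = 0.157). It was 0.69 without mCherry RNAi replicate 1 and 1.44 without mCherry RNAi replicate 2, so its size rests on the control used. Nup358, with the longest transcript among the members, had 16.2 and 19.7 FPKM in the control libraries and 32.0 and 30.2 FPKM after Piwi RNAi (log2 difference 0.77 ± 0.22; 95% interval 0.20 to 1.33; limma adjusted p = 0.152). The gene mbo, known in flies for holding emb at the nuclear envelope, had 8.38 and 11.6 FPKM in the controls against 17.4 and 16.9 FPKM under Piwi RNAi (log2 difference 0.74 ± 0.26; 95% interval 0.08 to 1.41; limma adjusted p = 0.171). The groups were apart in each of these genes, as in 51.5% of all tested genes, and the Piwi RNAi replicates lay close together.

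**Figure D3:**
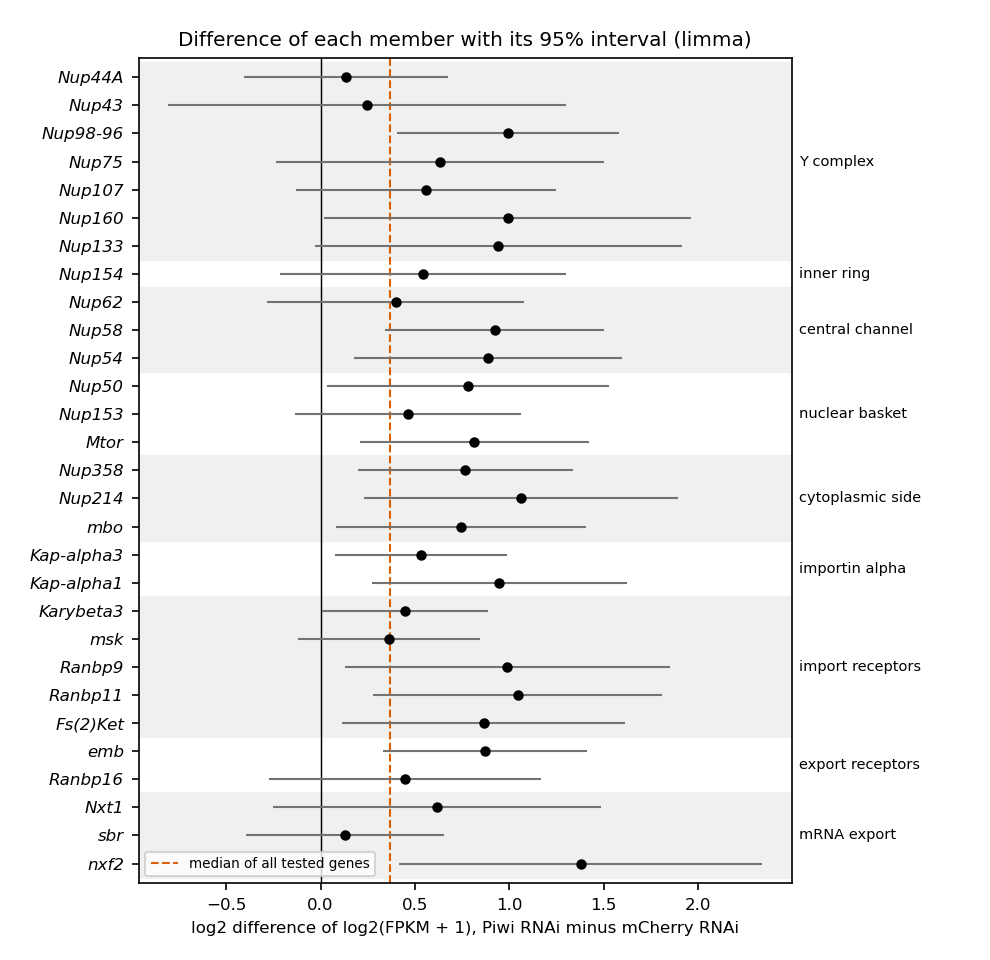
Log2 difference of each tested member (Piwi RNAi minus mCherry RNAi, in log2(FPKM + 1)) with its 95% interval from the limma fit; the solid line marks 0 and the dashed line the median of all tested genes at 0.37. The intervals of 17 members lie above 0 and those of the other 12 span it, while 0 members pass the adjusted threshold.

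Transport receptors covered a wider range of levels than nucleoporins, 50.4-fold in the controls and 21.7-fold after Piwi RNAi. By mean control level the order was Karybeta3 (123 FPKM), msk, Kap-alpha3, Nxt1, sbr, Kap-alpha1, emb, Ranbp9, Ranbp16, Ranbp11, Fs(2)Ket and nxf2 (2.45 FPKM), and it was the same after Piwi RNAi. Only 3 of the 11 neighbouring pairs overlapped in the controls: Nxt1 with sbr, Kap-alpha1 with emb, and Ranbp9 with Ranbp16. Summed levels of the 12 tested receptors were 406 and 505 FPKM in the controls and 649 and 679 FPKM after Piwi RNAi. The thirteenth, nxf4, another NXF paralog, was listed at 0 in all 4 libraries.

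Importin alpha proteins bind the classical nuclear localisation signal and hand it to importin beta. Kap-alpha1 (FBgn0024889) had 20.6 and 28.0 FPKM in the control libraries and 41.7 and 53.5 FPKM after Piwi RNAi. The groups were apart, with a 1.96-fold ratio of means (log2 difference 0.95 ± 0.26; 95% interval 0.27 to 1.62; limma adjusted p = 0.147). Kap-alpha3, the more abundant of the pair, had 69.6 and 70.1 FPKM in the controls against 93.8 and 109.6 FPKM under Piwi RNAi. Its control libraries were nearly equal, and its log2 difference was 0.53 ± 0.18 (95% interval 0.074 to 0.99; limma adjusted p = 0.166), or 0.13 with median-of-ratios scaling. Reads shared between importin alpha paralogs may be split by the authors' counting.

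Import receptors of the beta family take cargo into the nucleus directly or through an adaptor. Fs(2)Ket, the importin beta that carries importin alpha and its cargo, had 4.44 and 5.40 FPKM in the control libraries and 11.3 and 8.41 FPKM after Piwi RNAi, the lowest level among import receptors. The log2 difference was 0.87 ± 0.29 (95% interval 0.12 to 1.61; limma adjusted p = 0.167). Karybeta3, the fly importin 5, which in other animals carries ribosomal proteins and histones, had 111 and 136 FPKM in the controls against 168 and 167 FPKM under Piwi RNAi, with nearly equal Piwi RNAi replicates. The log2 difference was 0.45 ± 0.17 (95% interval 0.0058 to 0.89; limma adjusted p = 0.185), and median-of-ratios scaling brought it to 0.042. The fly importin 7, msk, which carries activated MAP kinase into the nucleus, had 71.5 and 87.0 FPKM in the control libraries and 106 and 97.7 FPKM after Piwi RNAi. Its difference of 0.36 ± 0.19 lay at the median of all tested genes and was −0.041 with that scaling and 0.22 without mCherry RNAi replicate 1.

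Ranbp9 and Ranbp11 are the fly importins 9 and 11. Ranbp9 had 11.1 and 20.3 FPKM in the controls against 30.1 and 31.8 FPKM under Piwi RNAi (log2 difference 0.99 ± 0.33; 95% interval 0.13 to 1.85; limma adjusted p = 0.167). Ranbp11 had 6.66 and 10.03 FPKM in the control libraries and 15.9 and 20.2 FPKM after Piwi RNAi (log2 difference 1.04 ± 0.30; 95% interval 0.28 to 1.81; limma adjusted p = 0.150). Both had the groups apart and mCherry RNAi replicate 1 lowest. The difference of Ranbp9 was 0.58 without that library and 1.397 without mCherry RNAi replicate 2.

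Export receptors were represented by emb and Ranbp16. The gene emb (FBgn0020497) encodes the fly CRM1, the exportin for leucine-rich export signals, and had 21.8 and 25.1 FPKM in the controls against 41.0 and 46.3 FPKM under Piwi RNAi. Group means were 23.4 ± 2.35 and 43.7 ± 3.75 FPKM (SD, n = 2 per group), a 1.86-fold ratio and a log2 difference of 0.87 ± 0.21 (95% interval 0.33 to 1.41; limma adjusted p = 0.137, the smallest among receptors). Dropping single libraries kept the difference of emb between 0.77 and 0.97. It was 0.54 with quantile normalization, 0.48 with median-of-ratios scaling, 0.42 after length adjustment and 1.06 with scaling to the same sum. Ranbp16, the fly exportin 7, had 10.9 and 16.3 FPKM in the control libraries and 17.4 and 19.9 FPKM after Piwi RNAi, with mCherry RNAi replicate 2 close below Piwi RNAi replicate 1 (log2 difference 0.45 ± 0.28; 95% interval −0.27 to 1.17; limma adjusted p = 0.321). The difference of Ranbp16 was 0.18 without mCherry RNAi replicate 1, 0.72 without mCherry RNAi replicate 2, 0.066 with median-of-ratios scaling and 0.0047 after length adjustment.

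Among the tested mRNA export genes 0 were called, and sbr and its paralog nxf2 were not tested against each other. The gene sbr had 44.6 and 44.7 FPKM in the controls against 44.2 and 54.2 FPKM under Piwi RNAi, with 3 of the 4 libraries alike and the groups overlapping. Its log2 difference was 0.13 ± 0.20 (95% interval −0.40 to 0.65; limma adjusted p = 0.671), and −0.27 with median-of-ratios scaling. Its partner Nxt1 had 31.8 and 59.0 FPKM in the control libraries and 71.3 and 63.0 FPKM after Piwi RNAi, where the spread between the control replicates was larger than the step between the group means (log2 difference 0.62 ± 0.33; 95% interval −0.25 to 1.48; limma adjusted p = 0.277). The difference of Nxt1 ran from 0.18 (mCherry RNAi replicate 1 dropped) to 1.051 (mCherry RNAi replicate 2 dropped).

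The paralog nxf2 (FBgn0036640) had 1.65 and 3.24 FPKM in the controls against 8.12 and 7.34 FPKM under Piwi RNAi, so both Piwi RNAi libraries were more than 2 times as high as the higher control. Group means were 2.45 ± 1.13 and 7.73 ± 0.553 FPKM (SD, n = 2 per group), a 3.16-fold ratio. The log2 difference of 1.38 ± 0.37 (95% interval 0.42 to 2.34; limma adjusted p = 0.146) was the largest among the 29 members and lay above 96.9% of all tested genes. It was 1.06 with median-of-ratios scaling and 0.96 after adjustment for transcript length, and 1.04 to 1.72 when single libraries were dropped. The counts behind it were small, at about 9 and 18 fragments in the controls and 35 and 45 after Piwi RNAi. Pooled within groups and scaled to depth, the ratio was 3.13, and counting error alone gives it a 95% range from 2.00 to 5.04 (Clopper-Pearson). That range rests on estimated fragment numbers and leaves out the variation between libraries. The same ratio was 2.06 for Nup133, 1.94 for Fs(2)Ket and 1.97 for Nup54, other members of low level. Panx (listed as CG9754), the silencing factor that nxf2 binds in the ovary, had 2.09 and 1.80 FPKM in the control libraries and 6.29 and 7.01 FPKM after Piwi RNAi, a log2 difference of 1.38 ± 0.32 that did not pass either (limma adjusted p = 0.135). Its counts were small too, at about 8 and 7 fragments in the controls and 19 and 30 after Piwi RNAi. The difference of Panx was 1.06 with median-of-ratios scaling and 0.99 after length adjustment. Panx belonged to no list and was picked by name. Its difference lay above 96.9% of all tested genes, while tex (1.57), Ranbp21 (1.55) and PCID2 (1.53), described below, had larger ones.

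Other genes of nuclear transport, looked up by symbol outside the members, gave 0 called genes too. Of 12 tested pore proteins that the table lists under CG numbers or other symbols, 8 lay higher in both Piwi RNAi libraries and 1 lower, beside 51.5% and 13.0% of all tested genes, and the median log2 difference was 0.82. In this list and those that follow, the 2 genes with the smallest p are given first. CG7262, now named Nup93-2, had 7.79 and 11.5 FPKM in the controls against 19.7 and 22.7 FPKM under Piwi RNAi, and CG14215, the fly Elys, which seeds pores on chromatin, had 2.75 and 5.03 FPKM in the control libraries and 10.2 and 9.56 FPKM after Piwi RNAi. Their groups were apart (log2 differences 1.08 ± 0.28 and 1.196 ± 0.342; limma adjusted p = 0.139 and 0.152). The one with lower values in both was sec13, named here after its values were seen, which serves both the Y complex and the coat of vesicles leaving the endoplasmic reticulum. It had 71.5 and 76.9 FPKM in the controls against 49.0 and 58.0 FPKM under Piwi RNAi, a log2 difference of −0.47 ± 0.19 (limma adjusted p = 0.198), against positive differences in 10 of the 12.

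The Ran cycle and carriers outside the symbol set comprised 11 tested genes, 10 of them higher in both Piwi RNAi libraries beside 51.5% of all tested genes (median log2 difference 0.64). Ranbp21, the fly exportin 5, had 2.65 and 4.45 FPKM in the control libraries and 12.8 and 11.4 FPKM after Piwi RNAi (limma adjusted p = 0.118), and RanBP3, a cofactor of CRM1 export, had 16.9 and 20.4 FPKM in the controls against 45.3 and 35.4 FPKM under Piwi RNAi (limma adjusted p = 0.132). Both separated the groups, as did Trn, the transportin that imports RNA-binding proteins, at 8.01 and 9.86 FPKM in the control libraries and 12.4 and 14.4 FPKM after Piwi RNAi. The GTPase itself, listed as ran and named after its values were seen, was far more abundant, at 186 and 266 FPKM in the controls against 282 and 299.9 FPKM under Piwi RNAi, a log2 difference of 0.39 ± 0.21 (limma adjusted p = 0.274) that became −0.021 with median-of-ratios scaling. Pen, another importin alpha, chosen like Trn after its values were seen, had 1.98 and 8.77 FPKM in the control libraries and 8.79 and 5.31 FPKM after Piwi RNAi, and its groups overlapped. Ntf-2r was listed at 0 in all libraries.

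TREX and TREX-2 are the complexes that load messenger RNA onto sbr. Of 12 tested, 8 were higher in both Piwi RNAi libraries, beside 51.5% of all tested genes, and 0 were called (median log2 difference 0.64). PCID2, a TREX-2 subunit, had 2.54 and 3.33 FPKM in the controls against 9.64 and 10.9 FPKM under Piwi RNAi, and tex, a TREX subunit, had 4.26 and 6.80 FPKM in the control libraries and 19.5 and 16.6 FPKM after Piwi RNAi. Both had group means more than 3 times apart (log2 differences 1.53 ± 0.29 and 1.57 ± 0.30; limma adjusted p = 0.104 for each). Ref1, the fly ALY adaptor, which was named after its values were seen, had 76.9 and 78.6 FPKM in the controls against 86.7 and 76.6 FPKM under Piwi RNAi, so the groups overlapped.

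**Figure D4:**
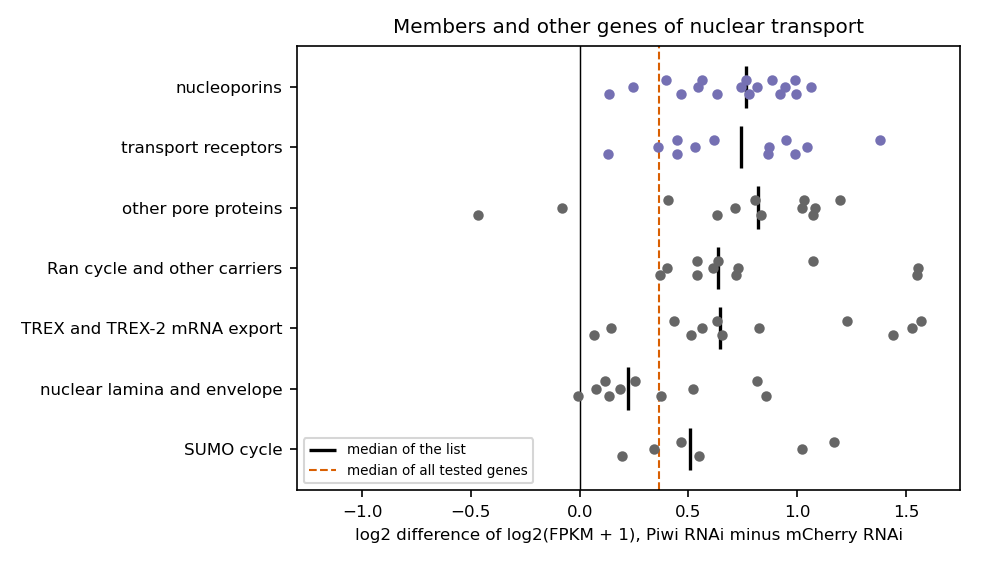
Log2 difference (Piwi RNAi minus mCherry RNAi, in log2(FPKM + 1)) of each tested gene in the lists of nuclear transport, members in purple and other genes in grey, with the median of each list as a black bar; vertical offsets within a list only separate points. The medians of the lists run from 0.22 (nuclear lamina and envelope) to 0.82 (other pore proteins) beside 0.37 for all tested genes, the dashed line.

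Proteasome and ribosomal protein genes were chosen for comparison because earlier results of these data had them as the largest movers. In the same fit, 23 of 30 tested genes with proteasome subunit symbols were called, with a median log2 difference of 1.76. Of those with ribosomal protein symbols 29 of 85 were called, with a median of −0.36, and 83 were lower in both Piwi RNAi libraries, beside 13.0% of all tested genes. They summed to 663780 and 660000 FPKM in the controls and 506240 and 522240 FPKM after Piwi RNAi. The sums of all tested genes were 1043200 and 1049800 FPKM, and 899570 and 928370 FPKM. How this fall bears on the library-scaled values of other genes was not tested. Over all tested genes 0.613% were called higher and 0.565% lower. Those all-gene calls fell to 1 and 7 genes with median-of-ratios scaling and to 0 and 0 with length adjustment. Nucleoporins and transport receptors, at 0.77 and 0.74, lay between the 1.76 and −0.36 of these groups, which the choice of the groups made likely. Transcripts of the members were long, with a median of 3024 nt against 1751 nt for all tested genes. After an adjustment of each library for transcript length the medians were 0.33 for nucleoporins and 0.40 for receptors beside −0.0066 for all tested genes, with 22 of 28 members above 0; those below were Nup153, Nup44A, Nup43, Karybeta3, msk and sbr.

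**Figure D5:**
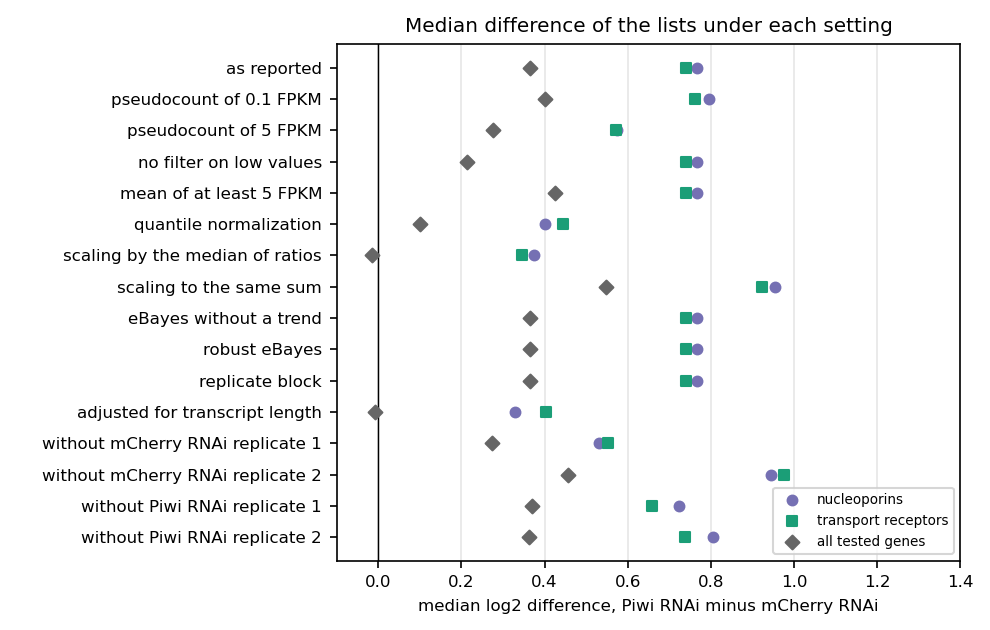
Median log2 difference (Piwi RNAi minus mCherry RNAi) of the 17 nucleoporins, the 12 transport receptors and all tested genes, as reported and under each alternative processing or with a library left out. The medians of both lists lie to the right of that of all tested genes in each of the 16 rows, with all 3 values moving left under quantile normalization, median-of-ratios scaling and length adjustment.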

How the data were processed

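RNA from sorted intestinal stem cells was extracted with Trizol and sequenced after TruSeq library preparation, per the labels' protocols. The authors deposited 1 table of FPKM values with a column per library. The submitters' processing notes name TopHat and Cufflinks, with no version; build, annotation, strand setting and the scaling of libraries against each other are not stated. Each library came from a pool of its own, per the series' design text.

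FPKM values are not counts, so limma 3.58.1 in R 4.3.3 was used (lmFit, eBayes with a trend; two-sided) on log2(FPKM + 1), over the 8313 genes averaging 1 FPKM or more, with Benjamini-Hochberg adjustment and a threshold of 0.05. Residual degrees of freedom were 2 (prior 2.86), and the script was tested on simulated data. The log2 difference, Piwi RNAi minus mCherry RNAi, understates the change of low genes. Depth was estimated from the steps of low values of genes with 1 transcript of at least 800 nt, at an effective length 130 nt under the transcript; 84.6% to 87.7% of low values fell within 0.1 of a whole fragment, against 20% by chance. Fragment numbers use the median transcript length of Ensembl BDGP6, whose match to the authors' annotation is unknown. Of the 29 members it holds, 7 overlap another gene's span by at least 100 nt, and 1 member, Ranbp11, had no match.

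Every member may be named; full statistics were given for the 8 members with the smallest and the 3 with the largest p of each list, and in each pathway list the 2 genes with the smallest p were named, so these are not typical of the list. Further genes of these lists were named after their values were seen, or because they were listed at 0. Outside the lists, piwi was named as the targeted gene, and Panx was also picked. The members, lists, tests and alternatives were chosen with earlier results of these data known. Alternatives were other pseudocounts, filters, scalings and eBayes settings, a replicate block, each library left out and, added after seeing the data, adjustment for transcript length (a lowess curve per library) and counts of members whose groups were apart under other scalings. No protein, promoter or genome sequence was used here.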

Additional observations from a re-analysis of the deposited data

How the results depend on the processing

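The number of nucleoporins or receptors called was 0 under each of the 15 alternatives, with a smallest adjusted p of 0.0766 in the limma fit after scaling to the same sum. The nucleoporin median of 0.77 became 0.40 with quantile normalization, 0.375 with scaling by the median of ratios and 0.33 with length adjustment, and 0.53 to 0.94 when single libraries were dropped. The receptor median of 0.74 became 0.45, 0.35 and 0.40 and ran from 0.55 to 0.98. Relative to all tested genes, the nucleoporin median ran from 0.26 to 0.55 over the alternatives and the receptor median from 0.28 to 0.53. Their values as reported were 0.40 and 0.38. These moves were smaller than the SD between replicates of each list's median level (0.2 and 0.204 on the log2 scale). That SD also holds shifts shared by all genes, so it is a loose yardstick. The median of all tested genes was 0.28 at a pseudocount of 5 FPKM, 0.21 with no filter, 0.10 with quantile normalization, 0.55 with scaling to the same sum, −0.014 with the median of ratios and −0.0066 with length adjustment, and 0.27 to 0.46 when single libraries were dropped. Of 434 values of single members, 419 kept their direction. The 15 that reversed were, with quantile normalization, −0.20 for Nup44A, −0.17 for Nup43 and −0.15 for sbr; with the median of ratios, −0.26, −0.13 and −0.27 for these and −0.041 for msk; with length adjustment, −0.20, −0.087 and −0.26 for these, −0.087 for msk, −0.022 for Nup153 and −0.0074 for Karybeta3; and with a library left out, Nup43 (−0.27 to 0.76) and sbr (−0.016 to 0.28). The cause was not tested. With a library left out, all remaining Piwi RNAi libraries lay above all remaining controls in 26 to 28 of 29 members, beside 58.6% to 63.8% of all tested genes. That is easier to meet than with all libraries, where it was 26 of 29 beside 51.5%.

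Over all tested genes the 51 higher and 47 lower calls became 0 and 0 with no filter (more genes tested), 82 and 85 among genes averaging 5 FPKM or more, 25 and 10 with quantile normalization, 1 and 7 with the median of ratios, 56 and 15 with scaling to the same sum, 0 and 4 without a trend, 108 and 101 with robust eBayes and 0 and 0 with length adjustment. With each library left out they were 0 and 0 in the limma fit, with 7.45% to 38.4% of genes at an unadjusted p under 0.05. With the replicate block they were 89 and 105. Replicate numbers were not taken as pairs, since the labels name no shared batch; same-numbered libraries deviated together at r = 0.25 across genes. With 1630000 to 2310000 fragments a library, low members such as nxf2 rest on 9 to 45 fragments.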

Other observations

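Beyond transport itself, the nuclear lamina and envelope genes had a median log2 difference of 0.22 over 10 tested genes, with 0 called by limma and 2 at an unadjusted p under 0.05, beside 26.6% of all tested genes. Ote, a LEM-domain protein of the inner nuclear membrane, had 3.99 and 5.55 FPKM in the controls and 8.41 and 10.4 FPKM after Piwi RNAi. The B-type lamin gene Lam had 20.4 and 33.3 FPKM in the controls and 48.0 and 45.5 FPKM after Piwi RNAi. LamC, the A-type lamin of differentiated cells, named after its values were seen, had 226 and 212 FPKM in the controls and 221 and 214 FPKM after Piwi RNAi. The log2 differences were 0.86, 0.82 and −0.0096, and the limma adjusted p-values were 0.171, 0.175 and 0.962.

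The SUMO cycle, whose ligase and protease act at the pore among other places, had a median of 0.51 over 6 tested genes, with 0 called by limma and 2 at an unadjusted p under 0.05, beside the same 26.6%. Ulp1, the SUMO protease bound to the pore basket, had 5.42 and 8.97 FPKM in the controls and 17.4 and 16.6 FPKM after Piwi RNAi (limma adjusted p = 0.140). Su(var)2-10, a SUMO ligase that acts in Piwi-directed silencing in the ovary, had 25.8 and 28.1 FPKM in the controls and 39.8 and 40.0 FPKM after Piwi RNAi (limma adjusted p = 0.175). The SUMO gene smt3, named after its values were seen, had 263 and 416 FPKM in the controls and 372 and 385 FPKM after Piwi RNAi.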
